A study of Rattus norvegicus with 62 samples.

Results

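The comparison was made between 14 chronic sham and 17 sub-acute sham rats, 31 of the 62 animals of the series. Each animal was taken into its group by its sample title, which begins with CS for chronic sham and AS for sub-acute sham, and no measured value was used in the choice. All were male Long Evans rats, 10 to 12 weeks old at the start, and all had been handled, anesthetized with isoflurane and restrained in the shock tube without receiving a blast. They were then run through behavioral tests, fear conditioning with foot shock among them, before tissue was taken. The tests began 1 to 1.5 months after the sham procedure in the sub-acute animals, which the deposited labels call acute, and 12 to 14 months after it in the chronic animals. The question was which genes change in the amygdala of an adult rat as it grows older without blast. By the methods, some tests were run in the sub-acute animals alone, and age, housing time and testing history cannot be told apart from the time-point.

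The amygdala is a group of nuclei that links sensory cues to fear and anxiety. Its basolateral part is mostly excitatory and receives cortical and thalamic input, and its central part is mostly GABAergic and sends output to the hypothalamus and brainstem. Brain ageing is commonly described as small shifts in many genes, with glial and immune genes rising and synaptic and metabolic genes falling, rather than as large changes in a few. Tissue punches of the central and basolateral nuclei were sequenced in bulk, so fewer cells of a type and less RNA per cell cannot be told apart. The counts carry Ensembl gene IDs, and the gene table used here paired 0 of the 32545 IDs with a symbol. For this reason the tissue was not checked against its marker genes, pathways were not described, and single genes are given by ID only.

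Total counts ran from 37627110 to 78585782 in sub-acute sham animals, with a median of 50123693. The chronic sham totals were lower, between 20582780 and 50570146, with a median of 42328495. A pair of chronic libraries stood apart from the rest. For each library the deviation of every gene from its mean over all animals was taken in log2 CPM (counts scaled to library size, with TMM factors), and the interquartile range over genes was 1.13 in animal CS115 and 0.767 in animal CS144. The other 12 chronic sham libraries lay between 0.229 and 0.425, and the sub-acute sham libraries between 0.231 and 0.597. CS115 also had the lowest total and CS144 a total of 44337306, above the chronic median. The animal numbers that follow in the titles differed between the groups as well. All 14 chronic sham animals have a number that begins with 1, while 2 sub-acute sham animals do, 14 begin with 2 and 1 begins with 6. What the number series stands for is not given in the sources used here.

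In the fit over all animals, rises with time were found mostly in weakly expressed genes and falls mostly in strongly expressed genes. The second part depended on the model, as described below. Of 16535 genes tested, 256 (1.55%) differed between chronic and sub-acute sham animals at an adjusted p under 0.05 (limma, Benjamini-Hochberg) and a fold change of at least 1.2. These were 188 upregulated genes (1.14% of those tested) and 68 downregulated genes (0.411%). The upregulated genes had a median log2 fold change of 0.59, or 1.51-fold, and the downregulated genes one of -0.45, or 1.37-fold lower. The changes were small, with 30 upregulated and 4 downregulated genes at 2-fold or more, and 91 and 52 of them below 1.5-fold. Over all genes tested the median log2 fold change was -0.0047, and 48.8% of genes were higher in chronic animals. No gene tested had chronic sham values that were all above or all below those of the sub-acute sham animals (0% of genes).

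Ranked by mean expression, 157 of the 188 upregulated genes lay below the median of the genes tested, and 49 of the 68 downregulated genes above it. The median upregulated gene had a median of 155 counts per sham animal, against 2189 counts for the median downregulated gene and 713 for the median gene tested. By quartile of expression, from the lowest to the highest, 1.91%, 1.89%, 0.460% and 0.290% of genes were upregulated. The downregulated share ran the other way, at 0.121%, 0.339%, 0.436% and 0.750%. The directions thus changed places from one end of the expression range to the other.

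**Figure D1:**
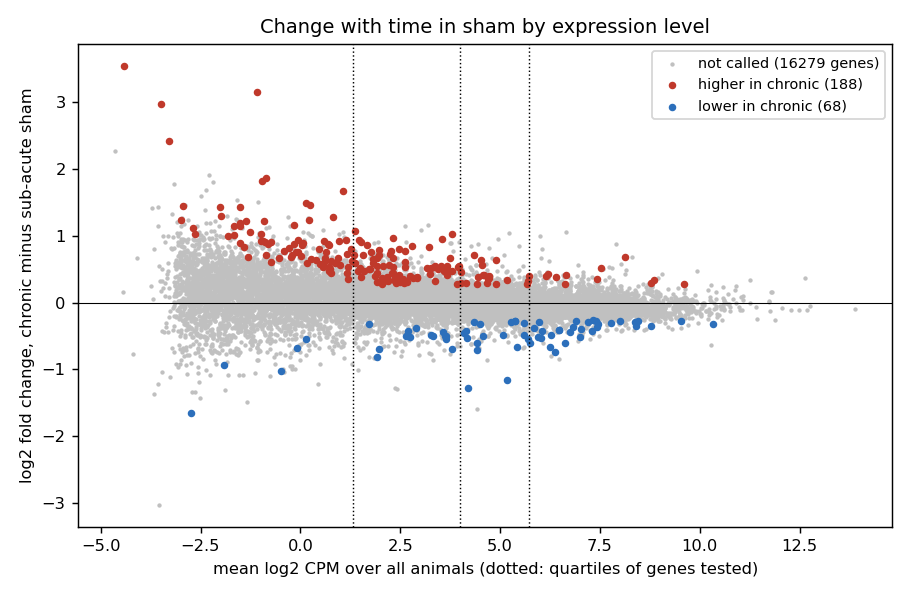
Log2 fold change between chronic and sub-acute sham animals (vertical axis) against mean log2 CPM over all animals (horizontal axis), 1 point per gene, with genes past both thresholds in red (188 higher in chronic) and blue (68 lower) and the quartiles of expression as dotted lines. Red points lie mostly left of the median line (157 of 188) and blue points mostly right of it (49 of 68).

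The same tilt was present over all genes tested, whether they passed the thresholds or not. The median log2 fold change was 0.13 in the lowest quartile of expression, where 65.1% of genes were higher in chronic sham, and -0.055 in the highest, where 31.8% were. At a raw p under 0.05, before adjustment, 1009 genes below the median expression were higher in chronic sham and 375 were lower, against 364 higher and 1221 lower above the median. Because chronic libraries were shallower, the counts were also thinned so that every library had the smallest total. The lowest quartile, of which 2714 genes then remained tested, had a median of 0.10 and the highest one of -0.052. With the library total as a covariate these medians were 0.052 and -0.014. Of the 41 genes downregulated past both thresholds in that model, 19 lay above the median expression, so the skew of the falls was not seen among them. Among genes past both thresholds it was also absent with surrogate variables, where 34.2% of the downregulated genes lay above the median, and smaller with sample quality weights, where 53.8% of 275 did. The upregulated genes lay mostly below the median in all 3 models (74 of 99, 264 of 316 and 465 of 542). At a raw p under 0.05 in limma's test, more falls lay above the median than below it in each of them. In the same order these were 632 against 393, 1859 against 540 and 1677 against 575 genes. This did not hold in the fit within number series 1, described below. Without CS115 and CS144 the quartile medians were 0.14 and -0.028. The balance of directions moved with the scaling, from 73.4% upregulated here to 83.5% (198 against 39 genes) when library size alone was used.

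Of the upregulated genes, ENSRNOG00000054834 had the smallest p and was almost silent in sub-acute animals. It had no count in 12 of 17 sub-acute sham animals and at most 2 in the others, a range of 0 to 0.051 CPM. In chronic sham animals it had 2 to 22 counts, or 0.041 to 0.58 CPM with a median of 0.23, and 11 of 14 lay above the highest sub-acute value. Summed over animals, sub-acute sham had 8 counts in all, and the chronic sum was 23.3 times as high once scaled to depth, with an exact 95% interval of 11.5 to 55.1 that covers counting error only. Such low counts make the size of the rise uncertain, and 4 chronic sham animals had 3 counts or fewer. In limma's test it rose by 3.54 ± 0.46 on the log2 scale (standard error), with an adjusted p of 1.6e-06. That p is from the fit over all animals, where the gene passed the low-count filter through its values in chronic sham and chronic blast animals. With the sham animals alone it did not pass the filter and was not tested.

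The next gene, ENSRNOG00000058720, was also weakly expressed but was detected in more sub-acute animals. Sub-acute sham animals had 0 to 8 counts with a median of 1, and 0 to 0.13 CPM. Chronic sham animals had 2 to 27 counts with a median of 10, and 0.050 to 0.72 CPM with a median of 0.24. The groups overlapped in 3 of the 14 chronic animals, and 11 lay above the highest sub-acute value. The depth-scaled ratio of summed counts was 6.80 (exact 95% interval 4.67 to 10.2, counting error only), and by limma the log2 fold change was 2.98 ± 0.40 (standard error), with an adjusted p of 1.9e-06. This gene too passed the filter through chronic animals in the fit over all animals, and it was not tested with the sham animals alone.

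The downregulated gene with the smallest p, ENSRNOG00000025745, was well covered, with 283 to 1936 counts per sham animal. Its level was 18.2 to 27.2 CPM in sub-acute sham animals, with a median of 21.2. In chronic sham animals it was 11.2 to 23.3 CPM, with a median of 14.2. In 12 of 14 chronic animals it was below the lowest sub-acute animal, and the highest chronic value, 23.3 CPM, was that of CS144. By limma the log2 fold change was -0.54 ± 0.074 (standard error), a decrease to 0.689 of the sub-acute level, with an adjusted p of 3.1e-06.

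The second downregulated gene, ENSRNOG00000011471, lay at 8.29 to 14.7 CPM in sub-acute sham animals (median 11.6). In chronic sham animals it lay at 5.29 to 10.5 CPM (median 8.58). All 14 chronic animals were below the sub-acute median, although only 6 were below the lowest sub-acute animal. By limma the log2 fold change was -0.49 ± 0.091 (standard error), with an adjusted p of 9.1e-04. Without CS115 and CS144 all 4 genes stayed past adjustment.

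**Figure D2:**
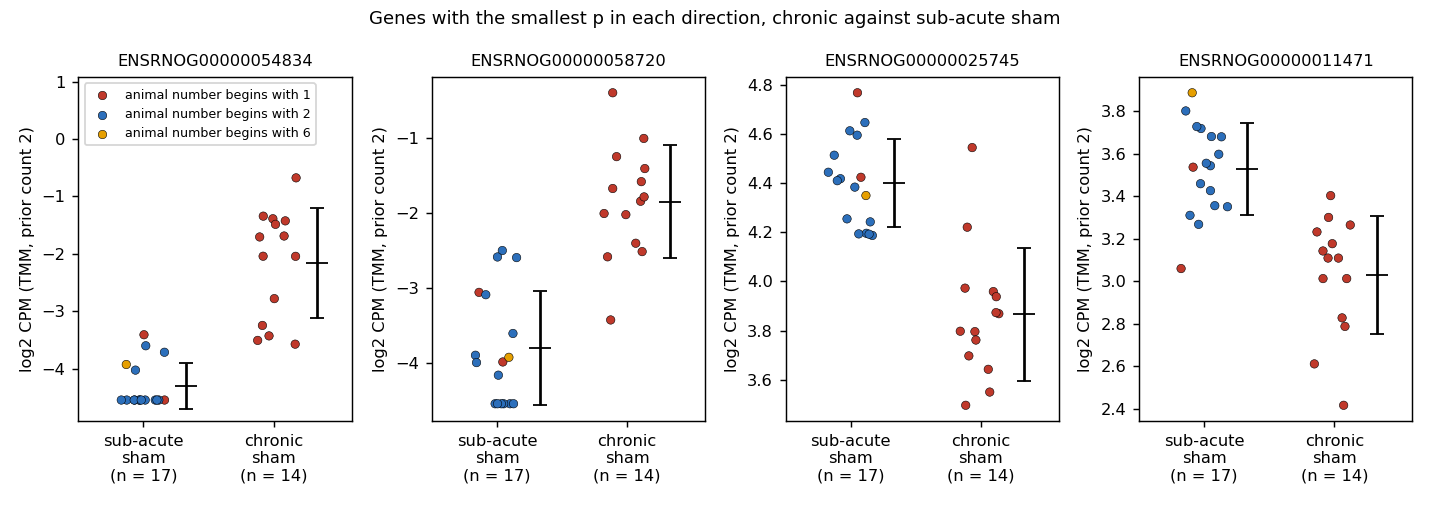
Log2 CPM (vertical axis) of the 4 genes named in the text, 1 point per animal, colored by the first digit of the animal number, with the mean and SD as bars. For ENSRNOG00000054834 and ENSRNOG00000058720, 11 of 14 chronic animals lie above every sub-acute animal, and for ENSRNOG00000025745, 12 of 14 lie below every sub-acute animal.

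The shift was shared by the chronic animals but unequal among them. As a summary for each animal, the median over the 188 upregulated genes of its log2 CPM minus the sub-acute sham mean was taken. Chronic sham animals lay between 0.27 and 0.95 (median 0.55), and sub-acute sham animals between -0.23 and 0.30. CS144 and CS115 had the highest values, 0.95 and 0.85, and CS112 the lowest among the chronic animals. For the 68 downregulated genes the chronic values ran from -1.15 in CS115 to -0.065 in CS112, and the sub-acute values from -0.47 in AS237 to 0.27. These genes were chosen by the same animals, so the separation is a description and was not tested.

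The change with time was also measured in the blast animals, 14 chronic and 17 sub-acute rats of the same strain, sex and age that received a 74.5 kPa blast every 24 h for 72 h and were tested over the same months as the sham animals. No animal is in both a sham and a blast group. In the fit over all animals, 182 of the 188 genes upregulated in sham were higher at the chronic time-point in blast (median log2 fold change 0.38), and all 68 genes downregulated in sham were lower (median -0.43). The sign was the same in sham and blast for 72.3% of all genes tested. Chronic blast libraries were also shallower, with a median total of 37460121 counts against 54959799 in sub-acute blast. With the library total as a covariate, 165 of the 188 genes were higher in blast (median 0.29) and all 68 were lower (median -0.28). The blast sign in that model was the sham sign of the fit without the covariate for 52.3% of all genes. The blast animals took part in the choice of the 256 genes through the filter on low counts and the estimate of the spread, so they were not independent of it.

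The genes were therefore also chosen from the 31 sham animals alone, and the blast animals were fitted alone. The sham animals alone gave 194 genes (1.22% of 15891 tested), 156 upregulated and 38 downregulated, of which 164 were among the 256. In the blast animals, 151 of the 155 upregulated genes that had a value were higher at the chronic time-point, with a median log2 fold change of 0.42, against 47.4% of all genes. All 38 downregulated genes were lower, with a median of -0.44, against 52.6% of all genes. Between these separate fits the sign was the same in sham and blast for 72.1% of all genes. At a raw p under 0.05 in limma's test, 76.1% of the upregulated genes were higher, against 15.1% of all genes, and 34 of the 38 downregulated genes were lower, against 13.8%.

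Among the chronic blast libraries, CB149 and CB111 stood apart in the same way as CS115 and CS144. Their interquartile ranges over genes were 1.21 and 0.791, and CB149 had the lowest total of all animals, 18220986 counts. Without both libraries the same numbers of genes kept their direction (151 of 155 and all 38), with medians of 0.42 and -0.39, against 50.5% and 49.5% of all genes. The sign was then the same in sham and blast for 63.3% of all genes. At a raw p under 0.05 in limma's test, 74.2% of the upregulated genes were higher, against 18.1% of all genes. Of the 38 downregulated genes, 32 were lower, against 17.5% of all genes. The per-animal medians of the 188 upregulated genes were 0.25 to 0.56 in chronic blast, with or without these libraries, and -0.14 to 0.23 in sub-acute blast animals, with no overlap. Those of the 68 downregulated genes were -0.82 (CB149) to -0.12 in chronic blast and -0.66 to -0.12 without both libraries, and they overlapped with the sub-acute blast range of -0.35 to 0.22. The 188 and 68 genes are from the fit in which the blast animals took part, so these ranges are a description and were not tested.

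**Figure D3:**
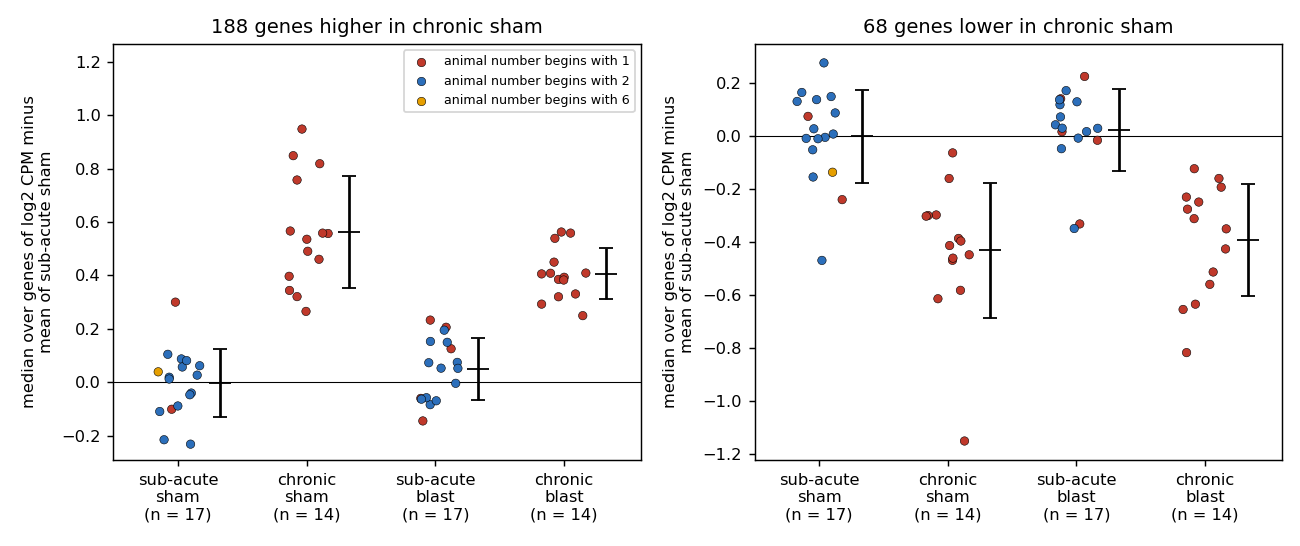
Median over the 188 upregulated (left) and 68 downregulated genes (right) of log2 CPM minus the sub-acute sham mean, 1 point per animal in the 4 groups, colored by the first digit of the animal number, with the mean and SD as bars. In the left panel chronic blast animals (0.25 to 0.56) lie above all sub-acute blast animals (-0.14 to 0.23), and in the right panel the groups overlap. The blast animals took part in the fit that chose these genes.

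**Figure D4:**
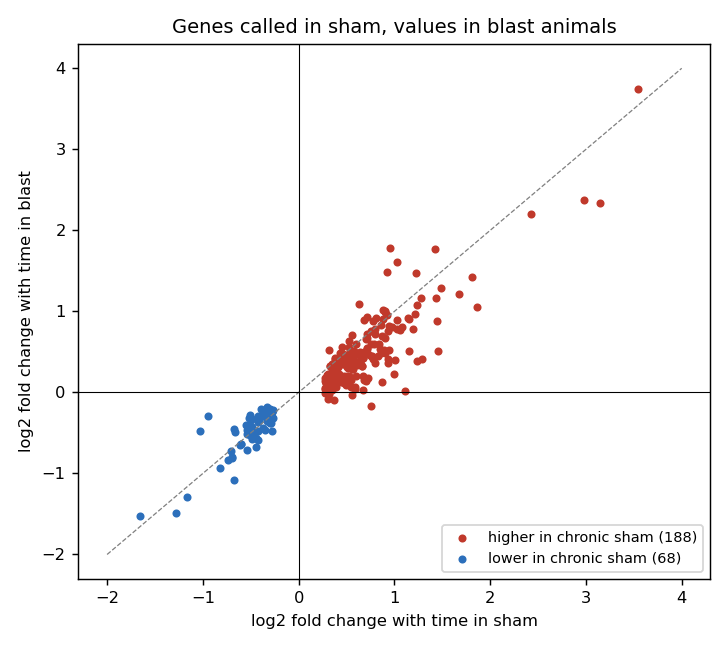
Log2 fold change with time in blast animals (vertical axis) against that in sham animals (horizontal axis) for the genes past both thresholds in sham, with the dashed line marking equal change. Of 188 upregulated genes, 182 lie above 0 in blast, and all 68 downregulated genes lie below 0.

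Most chronic and sub-acute animals were also of different number series, so the comparison was repeated within the series that begins with 1. For sham this left 14 chronic against 2 sub-acute animals, and 1 gene passed both thresholds, which was not among the 256. The 188 upregulated genes then had a median log2 fold change of 0.48 and the 68 downregulated genes one of -0.32. These 16 animals were among those that chose the genes, so the direction is a description. Over all genes, the median log2 fold change in this fit was 0.083 in the lowest quartile of expression and -0.046 in the highest. At a raw p under 0.05 in limma's test, most rises lay below the median expression, with 15 above it. The falls were 131 below the median and 93 above it, so their skew was not seen in this fit. The sub-acute pair differed from each other, with per-animal medians of the upregulated genes of 0.30 in AS104 and -0.10 in AS105. In blast, 14 chronic and 5 sub-acute animals are of that series. Fitted alone, they gave a median of 0.38 for the 156 genes upregulated in the sham animals alone, 95.5% of them above 0, and of -0.36 for the 38 downregulated genes, with 37 below 0, against 48.8% and 51.2% of all genes. The sign in this fit was that of the sham animals alone for 70.9% of all genes. With the series as a covariate over all animals, 3 upregulated genes and 1 downregulated gene passed. At a raw p under 0.05 in limma's test, more falls in that fit lay above the median expression (337) than below it. The medians of the 188 and 68 genes were then 0.54 and -0.39, and of the 4 genes named above only ENSRNOG00000025745 kept an adjusted p under 0.05, at 0.033 (limma). The log2 fold changes of the others were 2.88 for ENSRNOG00000054834, 2.29 for ENSRNOG00000058720 and -0.45 for ENSRNOG00000011471. All of these genes were chosen in the same animals, so the values with the covariate are a description as well.

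The number of genes past the thresholds depended on single animals. With 1 sham animal left out at a time it ran from 155 to 372. It fell by more than 1.5 times without CS125 (155 genes), CS115 (166) or CS127 (168). Without CS115, 19 of the 68 downregulated genes (27.9%) and 72.9% of the 188 upregulated genes stayed past the thresholds, and 88.6% of the genes were upregulated. Of these 166 genes, 156 (94.0%) were among the 256 found with all animals, which is 60.9% of the 256. Without both CS115 and CS144 there were 24 downregulated genes, 17 of them among the 68, and 82.7% of the genes were upregulated. Of the genes in that list 85.6% were among the 256, which is 46.5% of the 256. These losses were seen in the fit over all animals. With the sham animals alone, leaving out CS115 and CS144 gave 203 genes, 49 of them downregulated, against 194 and 38 with both kept. The largest number came without CS112, which had the smallest shift in both directions. Leaving out AS237, which had the lowest value of the downregulated genes in its group, gave 368 genes and lowered the upregulated share to 62.8%.

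**Figure D5:**
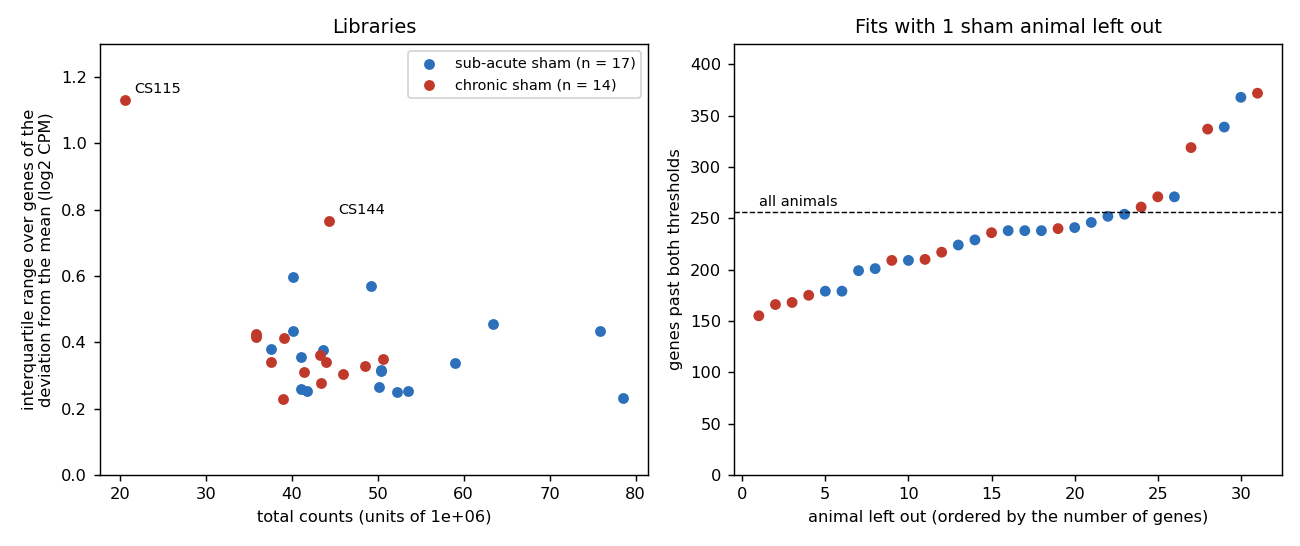
Left, interquartile range over genes of the deviation from the mean in log2 CPM (vertical axis) against total counts (horizontal axis), 1 point per sham library, with CS115 (1.13) and CS144 (0.767) above all others. Right, number of genes past both thresholds when each of the 31 sham animals was left out, in increasing order from 155 to 372, with the dashed line at the 256 genes of all animals.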

How the data were processed

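Amygdala RNA of 62 rats was sequenced from stranded, ribosomal RNA-depleted libraries. The authors used STAR 2.4.2a for alignment to Ensembl Rnor 6.0 and featureCounts 1.4.3-p1 for the count of each gene (also named in the submitters' processing notes), and they deposited the raw counts. Strand and multi-mapping settings are not given in the sources used here, so overlapping genes and near-identical copies are uncertain. The 2 columns that match no sample were not used.

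In R 4.3.3, genes were filtered with edgeR 4.0.16 (filterByExpr), scaled by TMM and fitted with voom and limma 3.58.1 as 4 group means over all 62 animals. A gene was called at an adjusted p under 0.05 and a fold of 1.2. Log2 CPM had a prior count of 2. The model was also run on simulated counts in which 200 genes changed 2-fold and no library was made to stand apart. That outcome is not given here, and most changes called in these data were smaller than 2-fold. Sham animals were also fitted alone, an alternative set with the design. Blast animals were fitted alone as well, a choice made after seeing the data. No pair of sham animals agreed within sampling noise (mean chi-square per gene at least 15.8).

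The 2 genes with the smallest p in each direction were named. Another 33 gene lists could not be used without symbols. Groups, lists and alternatives were chosen with earlier results of these data known. DESeq2 1.42.0 and sva 3.50.0 served as alternatives.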

Additional observations from a re-analysis of the deposited data

How the results depend on the processing

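The number of 256 genes was recomputed under 48 alternatives, of which 16 were set with the design and 32, those that leave out sham animals other than AS601, were chosen after seeing the data. It stayed within 1.5 times under 37. It became 455 with DESeq2, 817 with sample quality weights, 462 with 9 surrogate variables, 140 with the library total as a covariate, 4 with the number series as a covariate, 1 within number series 1, 20 with a log2 threshold of 1.2 and 1.4e+02 (rounded to 2 significant digits) without CS115 and CS144. Leaving out 1 animal gave 155 to 372. Within series 1 there are 2 sub-acute sham animals. The covariate set series 1 against all other animals, and its sub-acute animals of series 1 are these 2 and 5 blast animals. In both fits the small number of animals and a difference between series cannot be told apart. The cause of these shifts was not tested. The upregulated share of 73.4% was 83.5% with library size alone, 88.6% without CS115, 62.8% without AS237, 55.2% without a fold threshold and 90% with the log2 threshold of 1.2. The 4 named genes were chosen by their p in the same animals that the alternatives reuse, so their values are a description and no separate test. These genes gave 176 values, none with the opposite sign, and 169 had an adjusted p under 0.05. The other 7 were those within series 1 (adjusted p = 0.9998 in limma for all 4 genes) and, with the series as a covariate, those of the 3 genes other than ENSRNOG00000025745 (adjusted p from 0.30 to 0.41 in limma). The 10-count filter, the thinned counts and the fits of sham animals alone dropped ENSRNOG00000054834 and ENSRNOG00000058720, which then have no value. The covariates for striatal-type and choroid plexus genes were not run, because the IDs carry no symbols. No paired analysis was possible because chronic and sub-acute rats are different animals and carry different numbers.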
